A study of Prunus persica with 25 samples.

Results

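NCED3 (PRUPE_4G150100) and ABA1A (PRUPE_2G004500), a pair of genes of abscisic acid (ABA) synthesis, were followed in winter buds of peach (Prunus persica). These 2 genes, of 26873 in the count tables, were picked by identifier. The names come from the supplement of the study. Both were detected in all 25 libraries and passed the filter on low counts.

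ABA is the plant hormone best known for drought responses and for holding seeds and buds dormant. Its synthesis starts from carotenoids in the plastid. Zeaxanthin epoxidase, called ABA1 in Arabidopsis, turns zeaxanthin into violaxanthin and so supplies the epoxycarotenoids. The 9-cis-epoxycarotenoid dioxygenases (NCED) cleave these to xanthoxin, a step generally taken as rate-limiting. A short-chain dehydrogenase (ABA2 in Arabidopsis) turns xanthoxin into abscisic aldehyde. An aldehyde oxidase, whose cofactor depends on ABA3, makes ABA from it. ABA is removed by the 8'-hydroxylases of the CYP707A family or stored as a glucose ester made by glucosyltransferases.

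The samples were bulk RNA of vegetative and flower buds of the cultivar Fantasia, with no treatment other than the winter itself. The labels name each collection by its chilling units (CU), a measure of time spent in effective cold. Year A held vegetative buds at 0CU, 475CU and 770CU. Year B held vegetative buds at Pre0CU (before any chilling), 200CU, 475CU and Post770CU (later than 770CU), and flower buds at Pre0CU and Post770CU. Each vegetative collection had 3 libraries and each flower bud collection 2. By the sampling calendar of the study, year B ran from early September to late December, with 200CU in early November. Year A ran from the end of October to late December. Winter here means the span from the first to the last collection of a year, so it is longer in year B. Day length fell along these dates, so chilling, date and day length cannot be told apart. The study's methods say that buds of several trees made up the biological replicates. Which trees stand behind a library is not given, so p-values measure the spread between these samples. In bulk buds, fewer cells of a type and less RNA per cell cannot be told apart.

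Library totals were 39615840 to 71239880 counts, and the lowest count of a member in any library was 50 (ABA1A at 770CU, replicate 3). The 3 flower meristem markers LFY, AGL79 and AGL20B summed to 103 to 138 CPM (counts scaled by library size) in flower buds and 11.6 to 18.6 CPM in the vegetative buds of the same 2 collections. None was at 0 in any library. Among all vegetative libraries the flower meristem markers summed to 9.13 to 42.8 CPM. Within a collection their sum was spread most widely at 475CU of year B (10.8 to 42.8 CPM). LFY, a master regulator of floral fate, was at 27.9 and 26.5 CPM in replicates 1 and 2 of that collection and at 3.52 CPM in replicate 3. In the 9 libraries of year A 96.0% to 96.4% of counts above 0 were even and 4076 to 4756 genes had no count. In the 12 vegetative libraries of year B these values were 49.4% to 50.5% and 14 to 38 genes. Why the counts of year A were mostly even was not tested, so raw counts of the years may not be alike in scale. The label of the RNA was polyA RNA for the vegetative Post770CU libraries and all flower bud libraries and total RNA for the others.

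NCED3 was high in buds before chilling and low from 200CU on in year B. Date and day length differ along with chilling between these collections. In vegetative buds at Pre0CU it was at 107.2, 102.7 and 103.6 CPM in the replicates 1 to 3. At 200CU the same gene was at 4.67, 5.09 and 7.02 CPM. The lowest library before chilling was thus far above the highest at 200CU. The decrease was 18.7-fold (log2 fold change −4.22, SE 0.35, adjusted p = 1.06e-08 with edgeR's quasi-likelihood test and Benjamini-Hochberg adjustment). In this comparison 20.4% of 26752 genes were called, that is, had an adjusted p below 0.05 and a change of more than 1.4-fold. The fold change of NCED3 was the 20th lowest. The shoot meristem markers also fell, KNAT1 from 124 to 24.5 CPM and STM from 28.1 to 4.57 CPM. At Post770CU they were higher again, at 65.3 and 14.1 CPM. Whether these shifts bear on NCED3 was not tested.

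Later in the winter of year B NCED3 went lower by small steps. At 475CU it was at 3.45, 2.92 and 4.20 CPM, which did not overlap with 200CU. At Post770CU it was at 2.35, 1.92 and 2.52 CPM, below every library at 475CU. Neither step was called in the fit of all vegetative buds, where 6.31% and 13.6% of genes were called. The log2 fold change was −0.67 (SE 0.36, adjusted p = 0.267) from 200CU to 475CU and −0.63 (SE 0.38, adjusted p = 0.253) from 475CU to Post770CU. Both steps were called when each year was fitted on its own, at −0.68 (adjusted p = 0.00736) and −0.61 (adjusted p = 0.0115). Both steps include the libraries at 475CU with raised LFY. With replicate 3 alone at 475CU they were −0.41 and −0.89, as values of a single library with no spread of its own.

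From Pre0CU to Post770CU in year B, NCED3 dropped from 105 ± 2.41 to 2.26 ± 0.312 CPM (SD, n = 3 each). The log2 fold change was −5.52 (SE 0.38, adjusted p = 2.11e-10), a 46.0-fold decrease, where 35.5% of genes were called. It was the 22nd lowest of 26752. The RNA label also differs between these collections, and time and RNA label cannot be told apart for Post770CU. The decrease at 200CU was between collections that both have the label total RNA.

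In year A, which had no collection as early as Pre0CU of year B, NCED3 stayed high from 0CU to 770CU. At 0CU it was at 85.0, 44.2 and 29.2 CPM, at 475CU at 54.3, 131.5 and 95.3 CPM, and at 770CU at 66.3, 74.3 and 104.1 CPM. All 3 collections overlap, and none of the 9 libraries came near the levels of the chilled buds of year B. The ratio of the highest to the lowest replicate was 2.91 at 0CU, 2.42 at 475CU and 1.57 at 770CU. In year B it was 1.04 at Pre0CU, 1.50 at 200CU, 1.44 at 475CU and 1.32 at Post770CU. The 0CU libraries 1 and 3 were also the pair of replicates farthest apart over all genes, with a chi-square per gene of 81.5, while the other pairs of year A had values from 18.2 to 47.1.

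NCED3 was called higher at 475CU than at 0CU, by a log2 fold change of 0.82 (SE 0.30, adjusted p = 0.0346), in a comparison where 23.5% of genes were called. That call was lost in 6 of 12 alternatives, among them the separate fit of year A (adjusted p = 0.118). Leaving out 1 library gave 0.52 to 1.38. The call was lost without 0CU replicate 2 (0.71), 0CU replicate 3 (0.54), 475CU replicate 2 (0.52) or 475CU replicate 3 (0.81). From 475CU to 770CU the difference was −0.20 (SE 0.30, adjusted p = 0.716), where 13.2% of genes were called. From 0CU to 770CU it was 0.63 (SE 0.30, adjusted p = 0.0918), where 32.7% were called. Without 0CU replicate 1, the highest of its group, that last difference was 1.22 and was called (adjusted p = 9.44e-04).

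**Figure D1:**
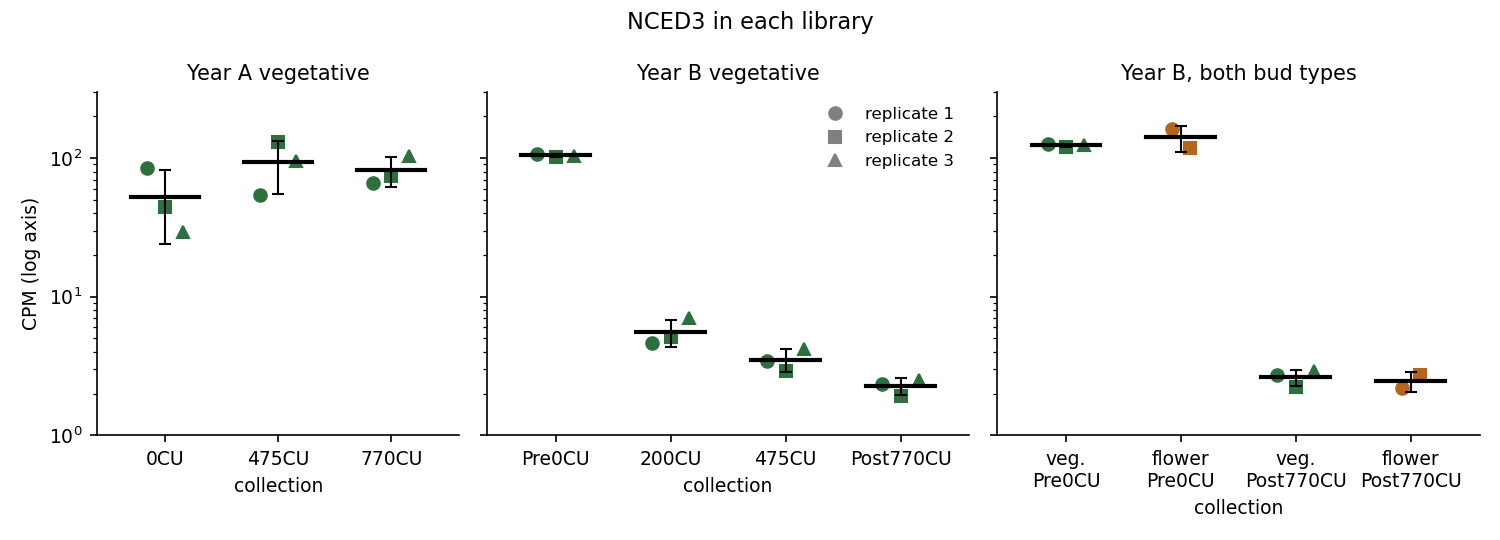
NCED3 in each library, in CPM on a log axis, by collection. Points are libraries, with the replicate as the symbol, and bars are the mean ± SD of the group; flower buds are brown. CPM of the right panel come from the model of both bud types, which was normalised on its own. The year A libraries all lie at or above 29.2 CPM, and the libraries of year B after Pre0CU all lie at or below 7.02 CPM.

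The 475CU collection was the only one sampled in both years. In the vegetative buds of year A NCED3 averaged 93.7 ± 38.6 CPM, against 3.52 ± 0.645 CPM for those of year B (SD, n = 3 each), and the lowest year A library was at 54.3 against a highest of 4.20 CPM in year B. The year A level was 26.6-fold higher (log2 fold change 4.73, SE 0.36, adjusted p = 4.55e-10). This comparison called 69.2% of all genes, and the median log2 fold change of all genes was −0.35, so a call by itself says little here. The fold change of NCED3 was the 59th highest. With replicate 3 alone at 475CU of year B, where LFY was low, it was 4.48, a value with no spread of its own in that group. The years differ in the season, in the share of even counts and in the number of genes without a count. The shoot meristem markers differed too. KNAT1 was at 267 CPM in year A and 43.4 in year B, and STM at 60.6 and 13.4 CPM. These differences cannot be told apart.

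In order of mean level over the vegetative collections, NCED3 ran from Pre0CU (105 CPM) over 475CU of year A (93.7), 770CU (81.5) and 0CU (52.8) to 200CU (5.59), 475CU of year B (3.52) and Post770CU (2.26). Neighbours among the first 4 overlapped in their libraries, and neighbours among the last 4 did not. The gap between 0CU and 200CU lies between the years.

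NCED3 fell from Pre0CU to Post770CU in flower buds of year B as well. At Pre0CU NCED3 was at 162.8 and 119.0 CPM in flower buds and at 127.0, 120.6 and 123.5 CPM in vegetative buds, both normalised together. At Post770CU it was at 2.18 and 2.74 CPM in flower buds and at 2.72, 2.23 and 2.92 CPM in vegetative buds. The bud types overlapped at both collections, and the collections were far apart in both bud types. In flower buds the decrease was 57.7-fold (log2 fold change −5.85, SE 0.16, adjusted p = 4.45e-12), where 44.5% of genes were called. It was the 17th lowest value of 26790. All 4 flower bud libraries had the label polyA RNA. From Pre0CU to Post770CU the mean of KNAT1 in flower buds went from 110 to 33.1 CPM, and that of STM from 31.0 to 45.7 CPM. Whether these shifts bear on NCED3 was not tested.

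Vegetative buds differed from flower buds in NCED3 by −0.19 (SE 0.10, adjusted p = 0.249) at Pre0CU and by 0.12 (SE 0.19, adjusted p = 0.653) at Post770CU, on the log2 scale. These comparisons called 7.88% and 28.3% of genes. The difference in the decrease itself, as the interaction of bud type and collection, was 0.30 (SE 0.21, adjusted p = 0.298), where 24.6% of genes were called. Without replicate 2 of the flower buds at Pre0CU the interaction was 0.51 and was called (adjusted p = 0.0158). Bud type and RNA label cannot be told apart at Pre0CU. The interaction has the same limit for every gene, since the RNA label changes between the collections in vegetative buds only.

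ABA1A fell in both years and in both bud types. In vegetative buds of year B it was at 8.84, 8.57 and 7.48 CPM at Pre0CU and at 5.39, 5.16 and 4.69 CPM at 200CU. It then was at 3.71, 2.82 and 2.51 CPM at 475CU and at 2.64, 2.42 and 2.32 CPM at Post770CU. Each collection lay wholly below the one before it except the last, which overlapped with 475CU.

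Both early steps of ABA1A were called. The log2 fold change was −0.71 (SE 0.17, adjusted p = 0.00264) from Pre0CU to 200CU and −0.76 (SE 0.18, adjusted p = 0.00725) from 200CU to 475CU. The last step was −0.29 (SE 0.18, adjusted p = 0.270). From Pre0CU to Post770CU the level dropped from 8.30 ± 0.715 to 2.46 ± 0.165 CPM (SD, n = 3 each), 3.37-fold, with a log2 fold change of −1.75 (SE 0.18, adjusted p = 5.97e-08). Of all genes 19.2% were called lower in this comparison, and the fold change of ABA1A was number 1282 from the lowest.

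In year A the gene was at 4.13, 4.45 and 3.67 CPM at 0CU, at 2.45, 2.29 and 1.35 CPM at 475CU and at 1.54, 1.50 and 1.28 CPM at 770CU. The 0CU libraries stood above all later ones, while 475CU and 770CU overlapped through the low replicate 3 at 475CU. ABA1A was lower at 475CU than at 0CU by a log2 fold change of −0.999 (SE 0.19, adjusted p = 2.72e-04). From 475CU to 770CU the change was −0.50 (SE 0.20, adjusted p = 0.0758), and it was −0.67 and called without replicate 3 at 475CU (adjusted p = 0.00880). From 0CU to 770CU ABA1A fell 2.82-fold (log2 fold change −1.50, SE 0.19, adjusted p = 1.98e-06), again in a comparison with 19.2% of genes called lower.

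**Figure D2:**
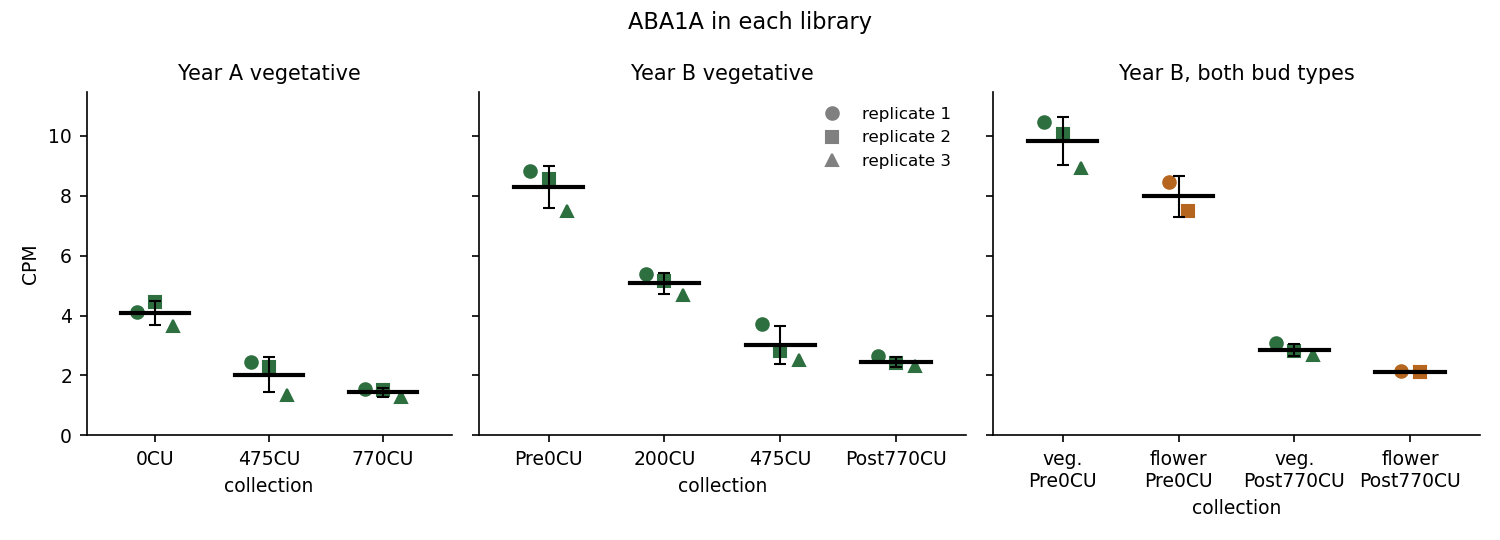
ABA1A in each library, in CPM on a linear axis from 0, by collection. Points are libraries, with the replicate as the symbol, and bars are the mean ± SD; flower buds are brown, and the right panel comes from the model of both bud types. The level fell from 4.08 to 1.44 CPM between 0CU and 770CU in year A and from 8.30 to 2.46 CPM between Pre0CU and Post770CU in year B.

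The mean of ABA1A at 475CU was 2.03 ± 0.595 CPM for year A, against 3.01 ± 0.622 CPM for year B (SD, n = 3 each), and all year A libraries lay below the lowest of year B (2.45 against 2.51 CPM). The log2 fold change of year A against year B was −0.56 (SE 0.19, adjusted p = 0.0100), close to the median of −0.35 over all genes. This call rested on single libraries. It was lost without replicate 3 of year A (−0.33, adjusted p = 0.0837) and without replicate 1 of year B (−0.39, adjusted p = 0.0768). With the year B library of low LFY alone the value was −0.30, with no spread of its own in that group.

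Over the vegetative collections the mean level of ABA1A ran from Pre0CU (8.30 CPM) over 200CU (5.08), 0CU (4.08), 475CU of year B (3.01), Post770CU (2.46) and 475CU of year A (2.03) to 770CU (1.44). Only Pre0CU and 200CU stood clear of the next collection in this order. The libraries of every other pair of neighbours overlapped.

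Flower buds had ABA1A at 8.46 and 7.49 CPM at Pre0CU and at 2.13 and 2.11 CPM at Post770CU. With the same normalisation, vegetative buds were at 10.47, 10.06 and 8.92 CPM and at 3.07, 2.82 and 2.69 CPM. Every vegetative library was above every flower bud library of its collection. In flower buds the gene fell 3.76-fold (log2 fold change −1.91, SE 0.14, adjusted p = 4.45e-08), where 22.7% of genes were called lower.

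Neither difference between the bud types was called for ABA1A. The log2 fold change of vegetative against flower buds was 0.30 (SE 0.12, adjusted p = 0.0957) at Pre0CU. At Post770CU it was 0.43 (SE 0.13, adjusted p = 0.0172), a 1.34-fold difference that passed the threshold on p but not the one on size. Its adjusted p was 0.0627 with only these 2 groups in the fit, and 0.0688 and 0.0730 without replicate 1 or 2 of the flower buds. The interaction of bud type and collection was 0.13 (SE 0.18, adjusted p = 0.619).

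**Figure D3:**
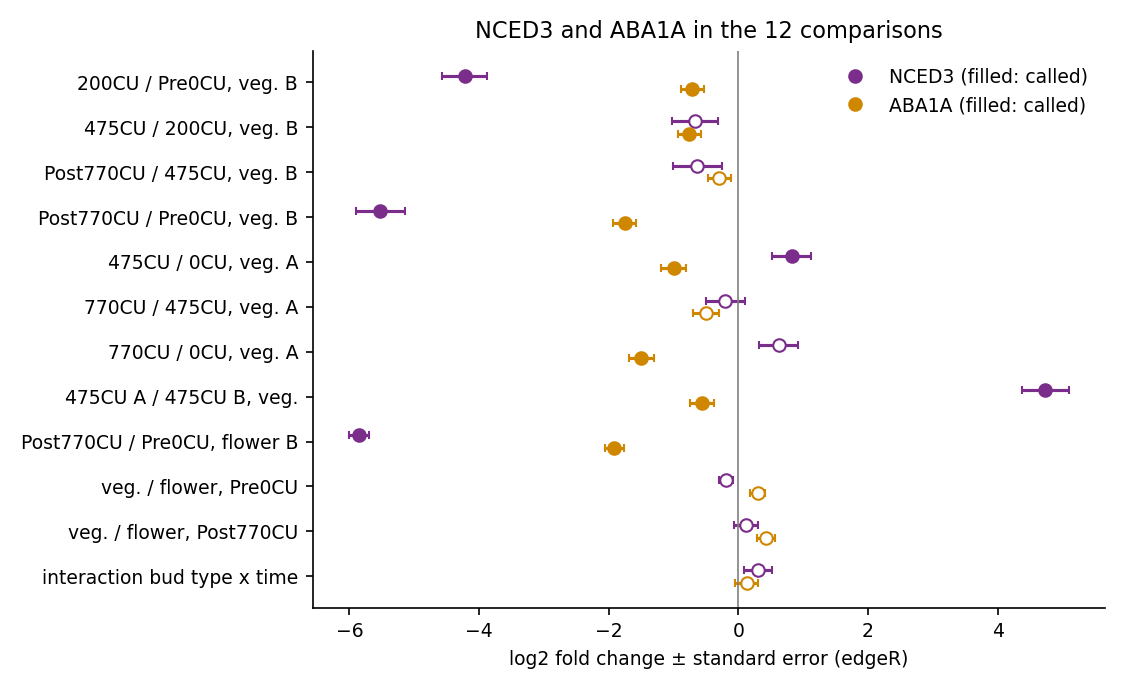
Log2 fold change ± standard error of NCED3 and ABA1A in the 12 comparisons, with edgeR. Filled points were called. The first collection of each pair is set over the second, A and B are the years and veg. means vegetative buds. NCED3 reached −5.85 in flower buds of year B and 4.73 between the years, while ABA1A lay between −1.91 and 0.43.

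Since both members are counted in the same libraries, the ratio of their counts does not depend on library size. It is not corrected for gene length and is compared only between libraries. NCED3 had 12.0 to 19.2 counts for each count of ABA1A in the 5 libraries at Pre0CU, both bud types included. In the 11 later libraries of year B the ratio was 0.791 to 1.67. It was 7.95 to 20.6 at 0CU, 22.2 to 70.7 at 475CU and 43.0 to 81.6 at 770CU in year A. The ratio thus was lower in all later libraries than at Pre0CU in year B, and in year A all libraries after 0CU were above those at 0CU.

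The other synthesis genes on a list of 24 ABA genes, taken from the supplement of the study, moved in both directions. The list holds 5 synthesis genes, 3 genes of ABA removal and 16 of perception and signalling, and was chosen by the study with these samples at hand. The supplement puts ABA1A and ABA1B under signalling, and they were moved to synthesis here for the role of ABA1 in Arabidopsis. The counts and medians of the groups depend on that move. From Pre0CU to Post770CU in vegetative buds 3 synthesis genes rose, and NCED3 and ABA1A were the 2 that fell. The median log2 fold change of the 5 was 0.65, against 0.02 over all genes, of which 16.3% were called higher and 19.2% lower. From 0CU to 770CU 3 rose and 1 fell, with a median of 0.71 against 0.00 over all genes, of which 13.5% were called higher and 19.2% lower. In flower buds 1 rose and 2 fell, with a median of −0.28 against 0.00 over all genes, of which 21.8% were called higher and 22.7% lower.

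ABA1B (PRUPE_7G133100), which carries the same zeaxanthin epoxidase name as ABA1A, ended each winter higher in vegetative buds, where ABA1A ended lower. It was at 63.2 ± 0.925 CPM at Pre0CU and 98.9 ± 4.54 CPM at Post770CU (SD, n = 3 each; log2 fold change 0.65, SE 0.08, adjusted p = 1.25e-06). In between it averaged 64.1 CPM at 200CU and 52.5 CPM at 475CU, so in year B it was raised at Post770CU alone. That is the only vegetative collection with the label polyA RNA, so time and RNA label cannot be told apart there. In year A it went from 49.5 ± 3.58 to 132 ± 13.0 CPM between 0CU and 770CU (log2 fold change 1.42, SE 0.08, adjusted p = 5.52e-11). In flower buds it was at 76.8 ± 7.84 and 63.4 ± 0.921 CPM (SD, n = 2 each), a change of −0.28 that was not called for its size. The interaction of bud type and collection was called for ABA1B at 0.90 (SE 0.08, adjusted p = 2.51e-06). In the same test ABA1A was at 0.13. The interaction cannot be told apart from the change of RNA label in vegetative buds.

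Expressed as a percentage of the ABA1B counts of the same library, ABA1A went from 12.0% to 13.8% at Pre0CU to 2.31% to 2.58% at Post770CU in vegetative buds. In flower buds it went from 10.3% and 10.5% to 3.29% and 3.40%. In year A it was 7.20% to 9.81% at 0CU, 1.19% to 2.21% at 475CU and 1.03% to 1.17% at 770CU. The collections at the start and the end of each winter did not overlap. Whether reads can be shared between these genes was not tested.

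ABA2 (PRUPE_6G138600) fell with the members at 200CU and then recovered. It went from 19.4 ± 0.399 CPM at Pre0CU to 7.85 ± 0.716 at 200CU, 16.6 ± 2.23 at 475CU and 32.5 ± 1.35 at Post770CU (SD, n = 3 each), and each step was called. At 475CU it was at 3.31 ± 1.54 CPM in year A, so that its log2 fold change between the years was −2.30 (SE 0.22, adjusted p = 1.05e-08) where that of NCED3 was 4.73. ABA3 (PRUPE_4G138400) rose over the winter by a log2 fold change of 1.38 in vegetative buds of year B, 0.81 in year A and 1.11 in flower buds (adjusted p = 2.22e-12, 6.54e-09 and 9.03e-10). In vegetative buds of year B both ABA2 and ABA3 were highest at Post770CU, where time and RNA label cannot be told apart.

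Among the removal genes, CYP707A2 (PRUPE_6G072400), an ABA 8'-hydroxylase by its name, was higher at 200CU than at Pre0CU by a log2 fold change of 1.02 (SE 0.22, adjusted p = 0.00100). It was the reverse of both members in that comparison. Like NCED3 it was higher at 475CU in year A than in year B, by 2.06 (SE 0.22, adjusted p = 5.94e-08). In flower buds it fell by 0.77 on the log2 scale (SE 0.16, adjusted p = 7.56e-04) while in vegetative buds it was at 0.48 and not called. Its interaction was 1.22 (SE 0.20, adjusted p = 3.09e-04), which cannot be told apart from the change of RNA label either. The glucosyltransferase gene UGT71B6-likeA (PRUPE_3G184700) fell over each winter, by 0.96 in vegetative buds of year B, 0.89 in year A and 1.10 in flower buds on the log2 scale. UGT71B6-likeB (PRUPE_3G184600) was called in none of the same 3 comparisons.

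**Figure D4:**
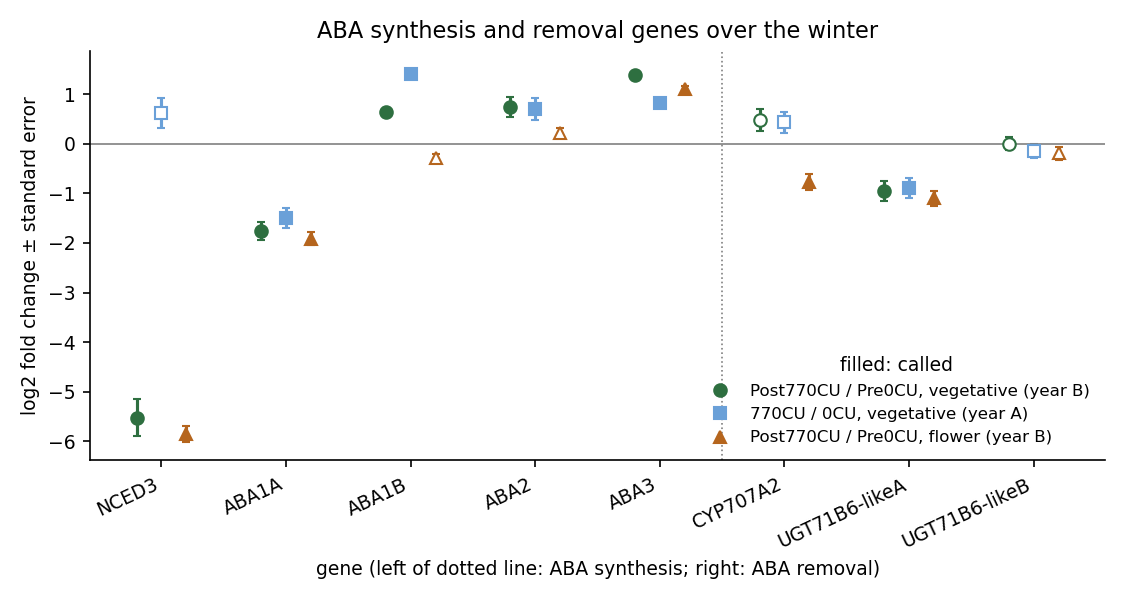
Log2 fold change ± standard error over the winter for the 5 synthesis genes and the 3 removal genes of ABA, in vegetative buds of year B (circles), vegetative buds of year A (squares) and flower buds of year B (triangles). Filled symbols were called. NCED3 lies at −5.52 and −5.85 in year B and at 0.63 in year A, ABA1A lies below −1.4 in all 3 comparisons, and ABA3 lies above 0.8 in all 3.

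Of the 16 perception and signalling genes, 1 rose and 9 fell from Pre0CU to Post770CU in vegetative buds, 4 rose and 7 fell in flower buds, and 6 rose and 6 fell from 0CU to 770CU. Over all genes 16.3%, 21.8% and 13.5% were called higher and 19.2%, 22.7% and 19.2% lower in these comparisons. The medians were −0.79, −0.33 and 0.09, against 0.02, 0.00 and 0.00 over all genes. PRUPE_8G125800, named AREB2/ABF4 in the supplement, is paired there with the Arabidopsis locus of an ABA 8'-hydroxylase, so its role is uncertain. It fell by 1.02 in vegetative buds of year B and rose by 1.10 in flower buds and 2.27 in year A, on the log2 scale (adjusted p = 1.34e-04, 2.51e-05 and 1.50e-08).

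The genes most like each member were sought among the 18459 genes whose log2 CPM averaged 1 or more. Likeness was the root mean square difference in log2 CPM over the 21 vegetative libraries, after each gene had been centred on its mean within each year. For NCED3 the nearest genes were PRUPE_I001100 (0.44), PRUPE_6G309400 (0.58), PRUPE_2G246800 (0.64), PRUPE_7G081600 (0.65) and PRUPE_3G289900 (0.69). The median over all genes was 1.73. In year A these genes moved in different directions. From 0CU to 770CU PRUPE_2G246800 was called lower (log2 fold change −0.76) and PRUPE_6G309400 higher (0.76), and the other 3 were at −0.24 to 0.13 and not called, where NCED3 was at 0.63. For ABA1A they were PRUPE_2G186900 (0.21), PRUPE_1G243100 (0.22), PRUPE_7G190300 (0.22), PRUPE_3G148500 (0.23) and PRUPE_8G034400 (0.24), with a median of 0.74.

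No gene is among the 5 nearest of both members, which follows from the distance between the members themselves (1.41). ABA1A was number 955 in the order of likeness to NCED3, at 1.41, and NCED3 was number 18198 in the order of likeness to ABA1A. The measure depends on the size of the changes. A profile with no change at all would lie at 1.69 from NCED3 and at 0.68 from ABA1A. The supplement annotates PRUPE_2G186900 as a cyclic nucleotide-gated cation channel, PRUPE_1G243100 as a cyclin-dependent kinase inhibitor of the SIM type and PRUPE_3G148500 as the chloroplast movement factor PMI2. The others are given by identifier only.

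Flower buds were not used to find these genes. The search did use vegetative buds of the same winter, where all 10 were called lower at Post770CU than at Pre0CU (log2 fold change −1.38 to −4.82). All 10 were also called lower in flower buds, where 22.7% of genes were. That share over all genes is no measure for genes picked with a falling profile. The nearest genes of NCED3 had log2 fold changes of −2.73 to −5.34 in flower buds, and those of ABA1A −0.98 to −2.17. The year means had been removed before the search. At 475CU the comparison of the years called 69.2% of all genes in either direction, so a count of calls says little. There 4 of the 5 genes near NCED3 were higher in year A, by 2.99 to 4.77, while PRUPE_7G081600 was at 0.11 (adjusted p = 0.360). That gene thus fell with NCED3 in year B without being higher in year A.

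**Figure D5:**
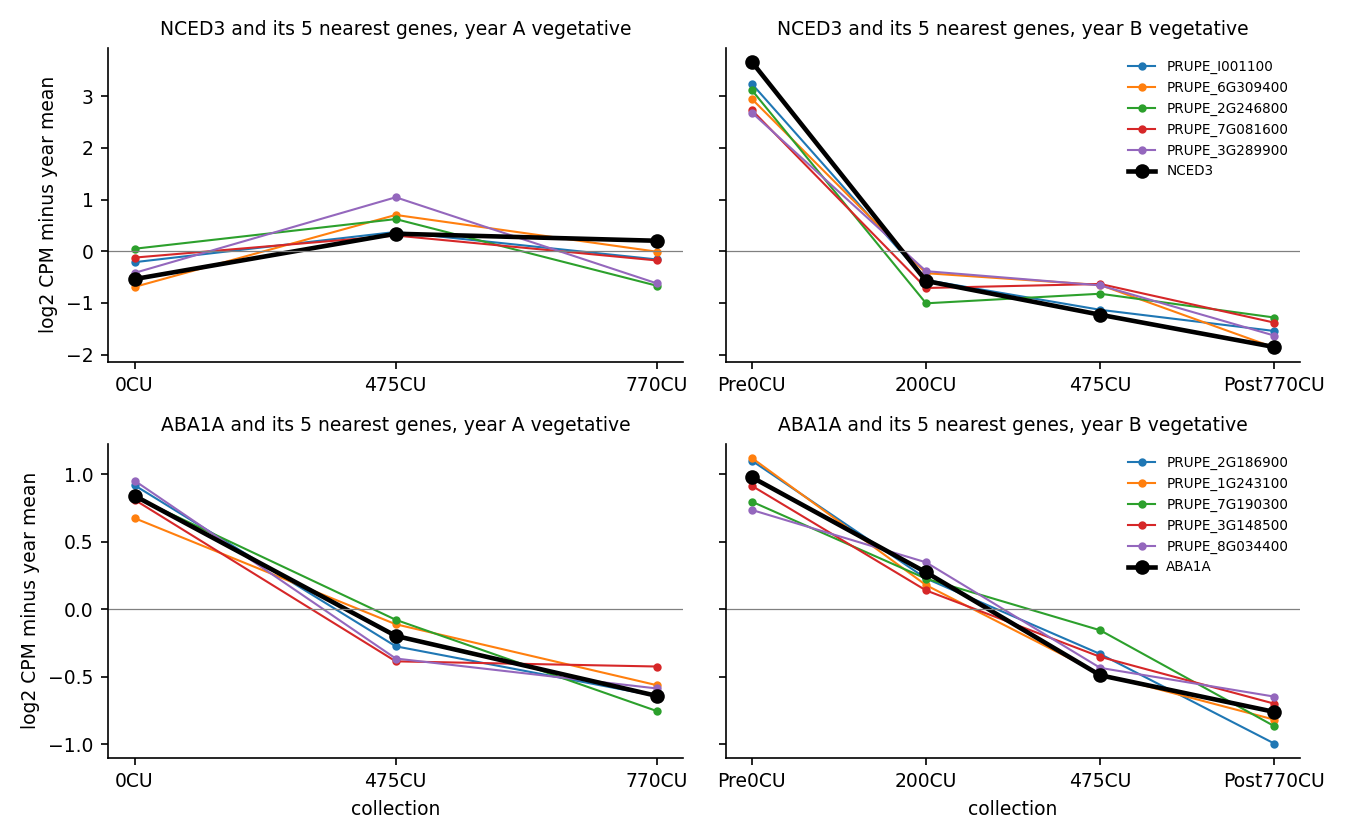
Mean log2 CPM of each collection minus the mean of its year, for NCED3 (top) and ABA1A (bottom) in black and the 5 nearest genes of each in colour, with year A on the left and year B on the right. In year B NCED3 and its nearest genes are highest at Pre0CU. ABA1A and its nearest genes go down over each winter.

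The identifier next after that of NCED3, PRUPE_4G150200, belongs to GA2ox1, an enzyme that inactivates gibberellins. It was looked at after its values had been seen. GA2ox1 was number 30 in likeness to NCED3 (0.92). It fell from 32.5 ± 2.93 CPM at Pre0CU to 2.63 ± 0.941 at 200CU (log2 fold change −3.62, SE 0.27, adjusted p = 2.26e-09). At 475CU it was higher in year A by 3.26 (SE 0.25, adjusted p = 5.29e-10). Unlike NCED3 it was called higher at 475CU than at 200CU in year B, by 1.27 (SE 0.27, adjusted p = 0.00310), and lower at 770CU than at 475CU in year A, by −1.39 (SE 0.23, adjusted p = 2.12e-04). The counts of NCED3 per count of GA2ox1 were between 0.298 and 3.99 over the 25 libraries, so their counts were not in 1 ratio. Whether the counting used strand is not given in the sources used here.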

How the data were processed

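Whole-number read counts per gene were deposited by the authors for 25 libraries, in tables of year A vegetative, year B vegetative and flower buds. The study's methods and processing notes name STAR for mapping to the peach v2 genome and bedtools 2.30.1 for counting, with duplicates discarded. No normalization had been applied to these counts. Table columns matched the labels by group only, so replicates carry the column number; 0 columns were left unused. The 475CU libraries were given to the year of the table that holds them.

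Counts were tested with edgeR 4.0.16 in R 4.3.3 (filterByExpr with a minimum count of 10 and total of 15, TMM, quasi-likelihood test, Benjamini-Hochberg over all genes tested). Genes were called at an adjusted p below 0.05 and a fold change above 1.4. One model held 21 vegetative libraries in 7 groups, another the 10 libraries of Pre0CU and Post770CU. Log2 CPM used a prior count of 2. Totals were 39615840 to 71239880 counts, and replicates differed by more than counting error (chi-square per gene 2.88 to 81.5 over 23 pairs). DESeq2 1.42.0 and other settings were alternatives. On simulated data, tested for Post770CU against Pre0CU, 97% of 2-fold and 100% of 4-fold changes were called among 26569 genes in vegetative buds (11 false calls), and 82% and 100% among 26760 in flower buds (9 false calls). The simulation changed 200 genes picked among those with higher counts, gave all genes the same spread and set no other difference between groups. It does not give the share called for genes as variable as NCED3. Figures were drawn with matplotlib 3.10.9.

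The members and lists were chosen with earlier results of these data known. Named genes were the members, the listed genes of ABA synthesis and removal, and the 5 genes nearest each member. The tables used here gave no products for these identifiers, so a planned search by product terms was not run and no sequence is printed.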

Additional observations from a re-analysis of the deposited data

How the results depend on the processing

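Of 282 alternative values for the members, 264 kept their direction and their side of the threshold, and no called value changed sign. For NCED3 this held under every alternative run for 200CU against Pre0CU (−4.42 to −4.11), Post770CU against Pre0CU in vegetative (−5.62 to −5.42) and flower buds (−6.06 to −5.61) and the years at 475CU (4.43 to 5.03), as log2 fold changes. For ABA1A it held for the same winter comparisons and for 770CU against 0CU (−1.52 to −1.37). The rise of NCED3 from 0CU to 475CU was no longer called with the replicate number as a block (0.81, adjusted p = 0.0557) or with a separate fit of each year (0.82), and was 0.52 to 1.38 when a library was left out. In the separate fits NCED3 was called at 475CU against 200CU (−0.68) and at Post770CU against 475CU (−0.61). Leaving out a library gave 0.38 to 1.22 for NCED3 from 0CU to 770CU, 0.062 to 0.51 for its interaction, −0.67 to −0.29 for ABA1A from 475CU to 770CU and −0.71 to −0.33 for ABA1A between the years. Other differences of NCED3, none of them called, changed sign when 1 library was left out. They ran from −0.44 to 0.15 for 770CU against 475CU, from −0.40 to 0.055 for vegetative against flower buds at Pre0CU and from −0.048 to 0.28 at Post770CU. The cause was not tested.

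Keeping at 475CU of year B only the library with low LFY, an alternative chosen after seeing the data, gave −0.30 for ABA1A between the years, no longer called, with a lone library that is assumed to vary like the other groups. With it 661 genes in place of 1687 were called between 200CU and 475CU, and 2169 in place of 3625 between 475CU and Post770CU, with fewer libraries in the fit. The replicate block made ABA1A called between bud types at Post770CU (0.49, adjusted p = 0.0107) and, beside the rise of NCED3 above, changed no other call of a member. The replicate numbers did not pair the samples, since deviations of same-numbered libraries correlated at −0.118 to 0.169 (median −0.005), and 3 of 21 libraries correlated best with their own number. Counts of 50 to 532 for ABA1A limit what small differences in it could be detected.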
